A study of Homo sapiens with 6 samples.

Results

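NRF2, the transcription factor encoded by NFE2L2, controls many of the genes that make and recycle glutathione, run the thioredoxin system, supply NADPH and detoxify reactive compounds. A set of 55 such genes was followed here, picked by symbol for these roles, with the iron genes left out. Earlier results of these data were known when the set was chosen. They took up 56 of the 60675 gene rows of the deposited table, since AKR1C3 has 2 rows. Subconfluent HT1080 cells, an established human fibrosarcoma line with genotype WT in the labels, were exposed for 48 h to 1 µM of SW-113 or of SW-138. The series concerns selectivity among inhibitors of the deacetylase KDAC6, also called HDAC6, an enzyme with tubulin among its substrates. Each compound had 3 libraries of ribosome-depleted total RNA, 6 in all. No vehicle group was analysed here, so "lower" and "higher" describe SW-138 libraries as set against those of SW-113, and which compound moved a gene cannot be told apart.

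In resting cells KEAP1 holds NRF2 and passes it to a CUL3 ubiquitin ligase, so NRF2 is mostly controlled as a protein and not through its own mRNA. When oxidants or electrophiles modify KEAP1, NRF2 builds up, pairs with a small MAF protein such as MAFG and binds antioxidant response elements beside its target genes. Glutathione and thioredoxin are 2 parallel reducing systems that both draw on NADPH, and peroxiredoxins, glutathione peroxidases and catalase use them or work beside them to remove peroxides.

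The antioxidant response element was searched for as TGACNNNGC on both strands of RefSeq promoter windows (GRCh38.p14) that ran from 250 bases before to 50 bases after a start site. Windows were found for 45 of the 55 members, and 11 of the 45 (24.4%) held a match, against 16.1% of all 27305 genes with a window. Of members lower in SW-138, 4 of 17 held one, and of tested members that did not pass the test, 7 of 25. The stretches below show matches of members on both sides of the test, each 5′ to 3′ on the gene's strand with the match in capitals and 24 bases of flank on either side.
GCLM (chr1:93909432-93909488, minus strand), 34 bases before the start: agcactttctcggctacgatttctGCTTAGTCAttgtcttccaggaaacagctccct
ME1 (chr6:83431156-83431212, minus strand), 137 bases before the start: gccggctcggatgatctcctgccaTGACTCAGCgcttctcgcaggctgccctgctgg
GSTP1 (chr11:67583722-67583778, plus strand), 66 bases before the start: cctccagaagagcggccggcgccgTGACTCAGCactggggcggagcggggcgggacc
TXNRD1 (chr12:104215656-104215712, plus strand), 99 bases before the upstream start: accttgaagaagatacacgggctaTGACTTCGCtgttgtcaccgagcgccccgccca
TXNRD1 (chr12:104286906-104286962, plus strand), 102 bases before the downstream start: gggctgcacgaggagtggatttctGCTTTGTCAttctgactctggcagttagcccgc
KEAP1 (chr19:10502793-10502849, minus strand), 54 bases before the start: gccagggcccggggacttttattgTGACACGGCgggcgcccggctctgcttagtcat
GCLM, ME1 and GSTP1 were lower in SW-138, and TXNRD1 and KEAP1 did not pass the test. Matches in GCLM and before the downstream TXNRD1 start lie on the opposite strand and so read in reverse complement. KEAP1 has a second match, left in lower case at the end of its stretch. The match in ME1 and that in GSTP1 read TGACTCAGC, which also contains the AP-1 element TGACTCA, held by 4.95% of all windows. A match describes letters in a window and is not a measured binding site.

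Library totals ran from 32771665 to 50871576 estimated read counts. Levels are given as CPM, the gene's count per unit of library size after TMM scaling, which adjusts for the makeup of each library. The labelled cell type fitted its markers, with 13 of 15 mesenchymal genes above 1 CPM in every library, VIM, FN1 and SPARC among them. THY1 was below that level in all libraries and S100A4 in some of them. Of 9 epithelial markers CLDN4 alone passed 1 CPM in every library, and of 7 blood markers 0 did. On the leading principal component (32.2% of the variance) the outermost library was SW-138 replicate 2, at 39.08, with the others from -24.05 to 5.88. Stable noncoding RNAs took 11.1% to 12.6% of counts with SW-113 and 7.33% to 9.99% with SW-138, and short transcripts were lower in general, as given for the members further on. With mitochondrial and stable noncoding genes left out, 20 members were lower in place of 21.

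Many members of the set were lower in SW-138 and few were higher. Of the 53 rows with enough counts to test, 31 did not pass, 21 were lower and 1 was higher by edgeR's quasi-likelihood test at a Benjamini-Hochberg adjusted p under 0.05. Over all 16905 tested genes 6.82% passed, 4.06% lower and 2.76% higher, a split of 687 to 466 that turned to 377 lower and 923 higher with scaling by total count alone. The median log2 fold change was -0.23 over the members and 0.01 over all tested genes. Because the set was chosen with earlier results of these data known, this contrast is a description and not a test. In 41 of the 53 rows the libraries of the compounds did not overlap, whereas this held for 27.9% of all tested genes. Summed over the 56 rows, the mean level was 5954 CPM for SW-113 (SD 204.9, n = 3) and 5238 CPM for SW-138 (SD 142, n = 3). Every SW-113 library had a larger sum than every SW-138 library, the lowest being 5758 CPM and the highest with SW-138 5322 CPM. The number lower was 12 with scaling by total count alone and 11, 11, 7, 13, 21 and 12 without SW-113 replicates 1, 2 and 3 and SW-138 replicates 1, 2 and 3. Whether replicates were separate cultures is not in the labels. The p-values therefore rest on spread among these libraries, and that spread may be technical only.

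**Figure D1:**
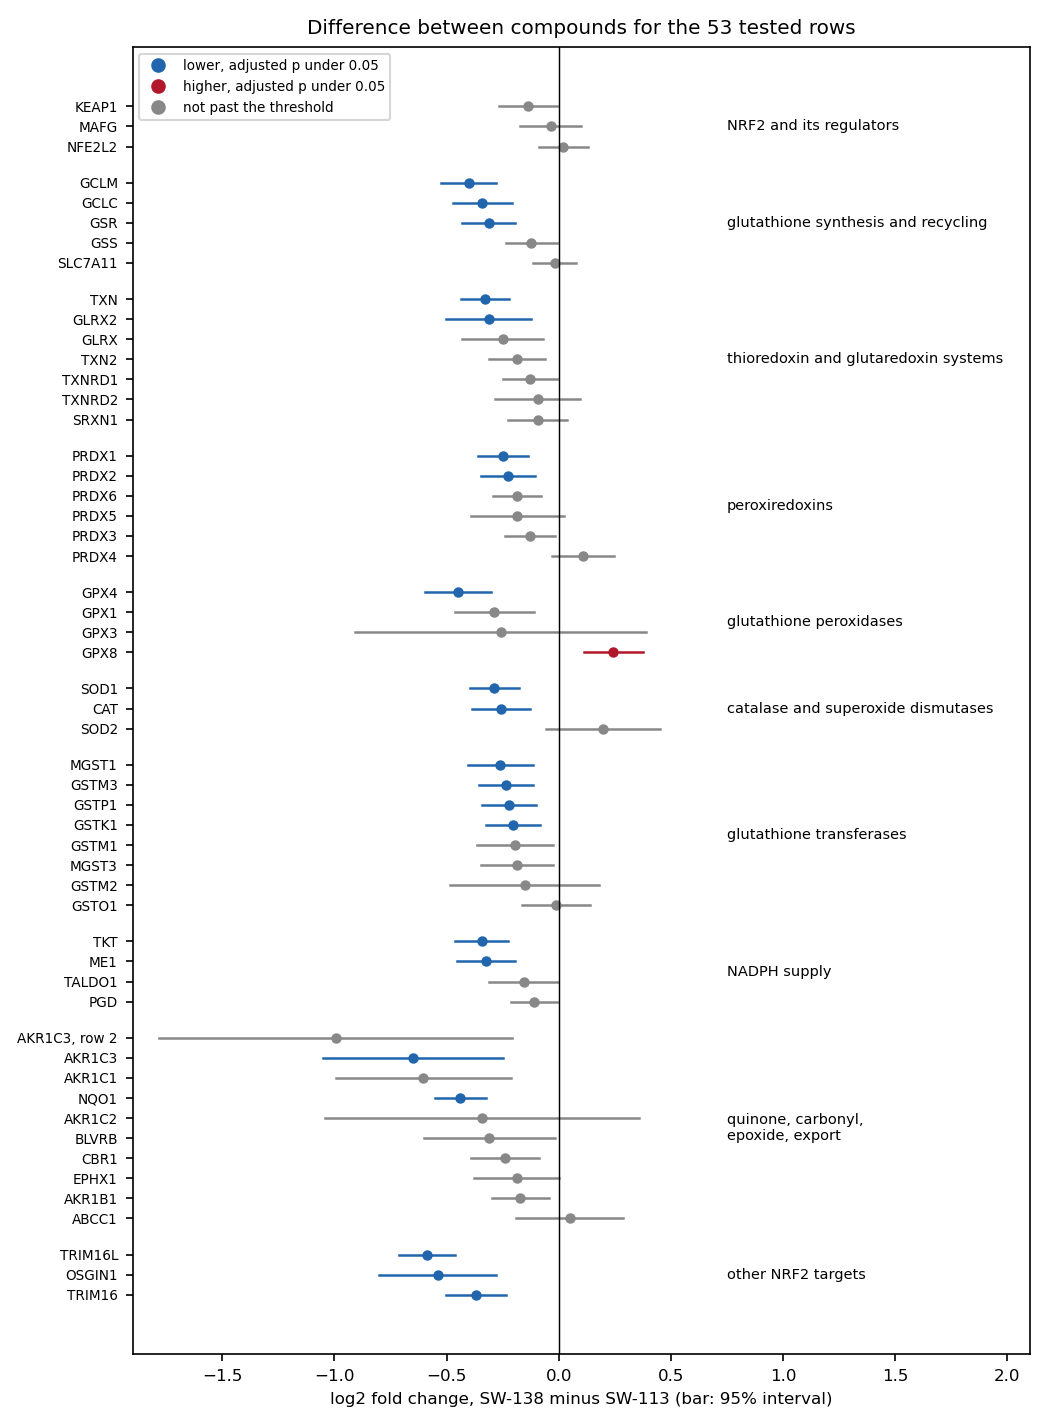
Log2 fold change (x axis, SW-138 minus SW-113) of the 53 tested rows, grouped by role, with 95% intervals as bars and colours for lower, higher and not past the threshold. Of the rows, 48 lie below 0, and GPX8 is the 1 called higher.

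The 3 members grouped as NRF2 and its regulators, NFE2L2, KEAP1 and MAFG, did not pass the test. Small MAF genes outside the set are given further on. NFE2L2 (ENSG00000116044, GRCh38 chromosome 2, 177227595 to 177392697) was at 127, 134 and 132 CPM with SW-113 and at 135, 137 and 128 CPM with SW-138. These libraries overlapped. The difference was 0.02 ± 0.05 (SE, as for every log2 difference given with ±) on the log2 scale (adjusted p = 0.846 by edgeR with Benjamini-Hochberg), and its 95% interval ran from -0.09 to 0.13. KEAP1 (ENSG00000079999, GRCh38 chromosome 19, 10486120 to 10503741), the adaptor through which NRF2 is degraded, was at 62.4, 65.1 and 61.4 CPM with SW-113 and at 53.3, 59.4 and 59.1 CPM with SW-138. All SW-113 values lay above all SW-138 values, but the difference of -0.14 ± 0.06 missed the threshold (adjusted p = 0.196 by edgeR with Benjamini-Hochberg). MAFG, a small MAF partner of NRF2, was at 73.8, 69.4 and 70.99 CPM with SW-113 and at 70.6, 64.00 and 74.05 CPM with SW-138, with overlapping libraries and a difference of -0.04 (interval -0.17 to 0.10). The sign of both the NFE2L2 and the MAFG difference turned in some alternatives.

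In glutathione synthesis, the enzyme that commits cysteine to glutathione was lower in both subunits, while the cystine importer was not shown to differ. GCLM (ENSG00000023909, GRCh38 chromosome 1, 93885205 to 93909456), the modifier subunit of glutamate-cysteine ligase, was at 61.97, 68.4 and 67.5 CPM with SW-113 and at 50.8, 50.4 and 48.6 CPM with SW-138. The lowest SW-113 library was above the highest SW-138 library, and the log2 difference was -0.40 ± 0.06 (adjusted p = 0.00388 by edgeR with Benjamini-Hochberg). GCLC, the catalytic subunit, was at 32.3, 34.8 and 32.03 CPM with SW-113 and at 26.2, 26.2 and 25.9 CPM with SW-138. The SW-138 libraries lay within 1 CPM of each other and below every SW-113 library, a difference of -0.34 ± 0.06 (adjusted p = 0.00873 by edgeR with Benjamini-Hochberg). GSR, glutathione reductase, which uses NADPH to regenerate glutathione, was at 97.9, 109 and 104 CPM with SW-113 and at 84.9, 81.5 and 83.9 CPM with SW-138. Its groups did not overlap and it was 1.24-fold lower (adjusted p = 0.00944 by edgeR with Benjamini-Hochberg). GSS, which adds the final glycine, was at -0.12 ± 0.05 and did not pass. SLC7A11, the cystine importer subunit and a known NRF2 target, was at 189.9, 189 and 188 CPM with SW-113 and at 186, 191 and 182 CPM with SW-138. Its libraries overlapped, and the interval of its log2 fold change, -0.11 to 0.08, holds neither the value of GCLM nor that of GCLC, although the difference between these genes was not tested. With length and GC trends removed SLC7A11 was at -0.13, outside that interval and not past the threshold. It passed, again at -0.13, once a replicate block was added. The call for GSR was lost without SW-113 replicate 3, and those for GCLM and GCLC held in each of the 6 fits that left out a library.

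**Figure D2:**
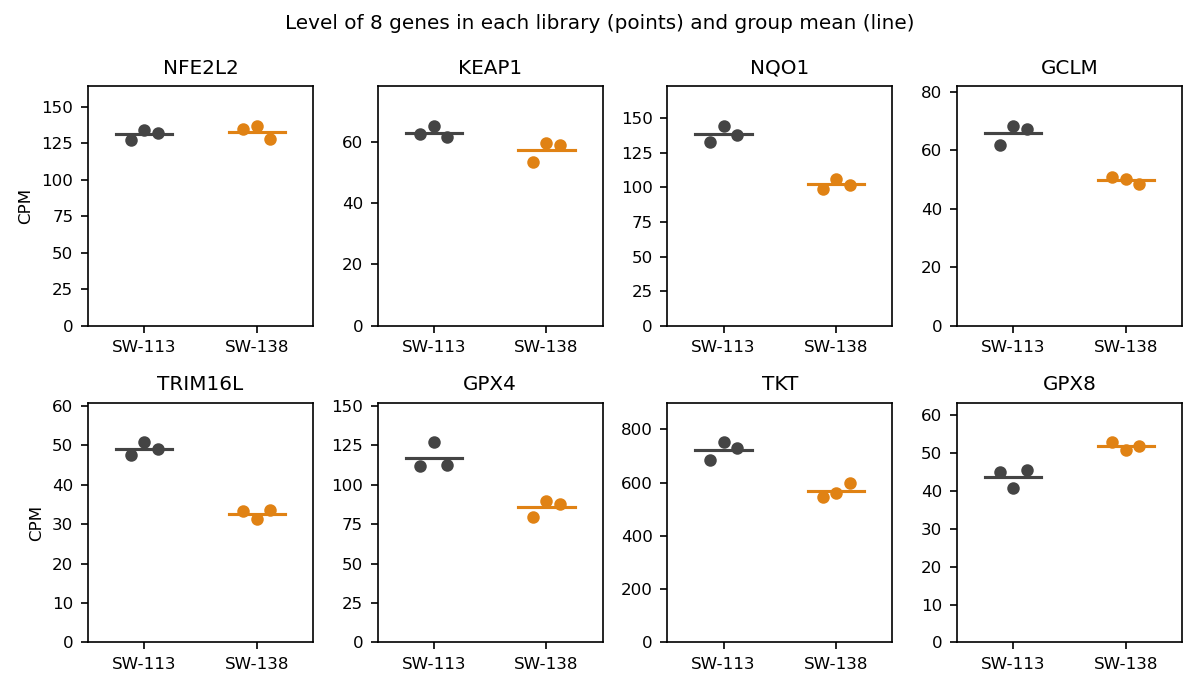
CPM (y axis, from 0) of 8 genes in each library, with a point per library and a line at the mean of the 3 libraries of each compound. NFE2L2 overlaps between compounds, NQO1, GCLM, TRIM16L, GPX4 and TKT lie lower in every SW-138 library, and GPX8 lies higher.

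The thioredoxin system had 2 of 7 members lower, 0 higher and 5 not past the threshold. Over all tested genes 4.06% were lower and 2.76% higher. TXN, the small disulfide reductase itself, was at 194, 190.5 and 205 CPM with SW-113 and at 159.7, 152 and 158 CPM with SW-138. These groups did not overlap, and TXN was 1.26-fold lower, with a difference of -0.33 ± 0.05 on the log2 scale (adjusted p = 0.00576 by edgeR with Benjamini-Hochberg). TXNRD1, the cytosolic selenoenzyme that recharges thioredoxin, was the member with the highest level per transcript length. It stood at 287 CPM per kilobase with SW-113 (SD 19.9, n = 3) and 262 with SW-138 (SD 5.17, n = 3), followed by TKT and TXN. By library it was at 1159.5, 1323 and 1200.4 CPM with SW-113 and at 1098, 1141 and 1127 CPM with SW-138. Each SW-138 library was below each SW-113 library, but the difference was -0.13 ± 0.05 and did not pass (adjusted p = 0.235 by edgeR with Benjamini-Hochberg), with an interval of -0.25 to -0.01. SRXN1, sulfiredoxin, which repairs overoxidised peroxiredoxins and is a known NRF2 target, was at -0.09 ± 0.06, with an interval of -0.22 to 0.04. The mitochondrial proteins TXN2 and TXNRD2 were at -0.18 ± 0.06 and -0.09 ± 0.08, neither past the threshold. GLRX2, a mostly mitochondrial glutaredoxin, was at 10.5, 10.1 and 11.01 CPM with SW-113 and at 8.68, 7.96 and 8.85 CPM with SW-138. That is a difference of -0.31 ± 0.09 (adjusted p = 0.0486 by edgeR with Benjamini-Hochberg), a call that was lost in each fit that left out a library (-0.34 to -0.27). GLRX, the cytosolic glutaredoxin, was at -0.25 ± 0.08 and did not pass. TXN lost its call with length and GC trends removed (-0.26).

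Peroxiredoxins, which reduce peroxides, most of them with electrons from thioredoxin, had 2 of 6 lower and 0 higher (all tested genes: 4.06% and 2.76%). The cytosolic PRDX1 and PRDX2 were at -0.25 ± 0.05 and -0.23 ± 0.05 (adjusted p = 0.0222 and 0.0356 by edgeR with Benjamini-Hochberg). Neither group pair overlapped. PRDX6, PRDX5 and PRDX3 were at -0.19, -0.19 and -0.13 and did not pass. PRDX6 was near the threshold (adjusted p = 0.0547 by edgeR with Benjamini-Hochberg) and passed in 8 of 15 alternatives that kept all libraries, among them the DESeq2 test and limma-voom. PRDX4, the peroxiredoxin of the endoplasmic reticulum, had the opposite sign, at 0.11 ± 0.06, again not past the threshold. Its SW-138 libraries, from 40.4 to 43.3 CPM, lay above those of SW-113, from 35.8 to 40.2 CPM. The calls for PRDX1 and PRDX2 were lost without any 1 of SW-113 replicates 1, 2 and 3 and SW-138 replicates 1 and 3, with values over the 6 fits from -0.29 to -0.21 and from -0.25 to -0.19.

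Of 4 glutathione peroxidases tested, 1 was lower and 1 higher (all tested genes: 4.06% and 2.76%). GPX4 (ENSG00000167468, GRCh38 chromosome 19, 1103926 to 1106791), the selenoenzyme that reduces lipid peroxides within membranes, was at 112, 127 and 112 CPM with SW-113 and at 79.6, 89.9 and 87.7 CPM with SW-138. The compounds were apart in every library, and GPX4 was 1.37-fold lower, a difference of -0.45 ± 0.07 on the log2 scale (adjusted p = 0.00506 by edgeR with Benjamini-Hochberg). The value was -0.33 with length and GC trends removed, still past the threshold. GPX1, the abundant cytosolic selenoenzyme, was at 231 CPM on average with SW-113 (SD 14.8, n = 3) and 189 CPM with SW-138 (SD 21.3, n = 3), with no overlap. Its difference of -0.29 ± 0.08 missed the threshold (adjusted p = 0.0633 by edgeR with Benjamini-Hochberg), but passed in 4 of 14 alternatives that kept all libraries, the DESeq2 test among them, and without SW-138 replicate 2. GPX8 (ENSG00000164294, GRCh38 chromosome 5, 55160118 to 55167071), a membrane protein of the endoplasmic reticulum that carries cysteine in place of selenocysteine, was at 45.00, 40.7 and 45.6 CPM with SW-113 and at 52.8, 50.7 and 51.9 CPM with SW-138. It was the 1 member called higher, 1.18-fold, with a log2 difference of 0.24 ± 0.06 (adjusted p = 0.0334 by edgeR with Benjamini-Hochberg). That call was lost with length and GC trends removed (0.21) and without any 1 of SW-113 replicates 1, 2 and 3 and SW-138 replicates 1 and 3. GPX3, a secreted enzyme, was below 1 CPM in every library, at -0.26 ± 0.29, and GPX7 had 0 counts in all 6 libraries.

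SOD1, the cytosolic superoxide dismutase, and CAT, the peroxisomal catalase, were lower, at -0.29 ± 0.05 and -0.26 ± 0.06 (adjusted p = 0.00916 and 0.0254 by edgeR with Benjamini-Hochberg). Mean levels of SOD1 were 89.5 CPM for SW-113 against 73.4 CPM for SW-138, and those of CAT 36.9 CPM for SW-113 against 30.9 CPM for SW-138. SOD2, the mitochondrial manganese enzyme, was at 0.20 ± 0.11 with overlapping libraries. Its value in SW-138 replicate 2, 237 CPM, was above the other 5, which lay from 154 to 182 CPM, and without that library its difference was 0.02. SOD1 lost its call without SW-113 replicate 3, and CAT on omitting any SW-113 library or SW-138 replicate 1.

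Glutathione transferases couple glutathione to electrophiles, and 4 of the 8 tested were lower and 0 higher (all tested genes: 4.06% and 2.76%). GSTP1, the main transferase of many cultured lines, was at -0.22 ± 0.05, GSTM3 at -0.24 ± 0.05, the mitochondrial and peroxisomal GSTK1 at -0.20 ± 0.05 and the membrane-bound MGST1 at -0.26 ± 0.06. GSTP1 was the most abundant of these 4 in CPM, at 165 CPM on average with SW-113 (SD 3.31, n = 3) and 142 CPM with SW-138 (SD 8.85, n = 3). GSTO1, which handles arsenic and dehydroascorbate, had a like level (194 CPM for SW-113 against 192 CPM for SW-138) and a difference of -0.01, with an interval of -0.16 to 0.14. GSTM1, GSTM2 and MGST3 were at -0.20, -0.15 and -0.19 and did not pass. GSTM4 and MGST2 were too low to test, with 0 to 8 and 3 to 5 counts in a library. Members of the GSTM family are near-identical in parts, so their estimated counts can be shared between them. All 4 calls were lost without any 1 of the 3 SW-113 libraries or without SW-138 replicate 3. GSTP1, GSTM3 and GSTK1 also lost theirs without SW-138 replicate 1, and GSTK1 without SW-138 replicate 2.

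Of the 4 genes grouped under NADPH supply and the linked pentose phosphate pathway, TKT and ME1 were lower and PGD and TALDO1 did not pass. TKT (ENSG00000163931, GRCh38 chromosome 3, 53224707 to 53256052), transketolase of the nonoxidative pentose phosphate pathway, was at 686, 750.3 and 728 CPM with SW-113 and at 545, 562 and 600.1 CPM with SW-138. Every SW-113 library was above every SW-138 library, with a difference of -0.34 ± 0.05 on the log2 scale (adjusted p = 0.00873 by edgeR with Benjamini-Hochberg). ME1, the cytosolic malic enzyme, was at 104, 119 and 109.7 CPM with SW-113 and at 88.9, 91.04 and 85.4 CPM with SW-138. The groups did not overlap, and the difference was -0.32 ± 0.06 (adjusted p = 0.0118 by edgeR with Benjamini-Hochberg). PGD, an NADPH-forming enzyme of the oxidative branch of that pathway, was at -0.11 ± 0.05, and TALDO1, transaldolase, at -0.16 ± 0.07. The calls were lost without SW-113 replicate 3 (both genes) and without SW-138 replicate 3 (ME1).

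Among enzymes for quinones, carbonyls and epoxides, NQO1 and AKR1C3 were lower, and NQO1 had the smallest adjusted p. NQO1 (ENSG00000181019, GRCh38 chromosome 16, 69706996 to 69726951), the quinone reductase often used as a readout of NRF2, was at 133, 144 and 137.6 CPM with SW-113 and at 98.8, 106 and 101 CPM with SW-138. No library of one compound reached those of the other, and NQO1 was 1.36-fold lower, a log2 difference of -0.44 ± 0.05 (adjusted p = 0.00226 by edgeR with Benjamini-Hochberg). Its value ran from -0.47 to -0.41 when each library was left out in turn, all past the threshold. Aldo-keto reductases AKR1C1, AKR1C2 and AKR1C3, which reduce ketosteroids and other carbonyls, had low counts. AKR1C3 was at 4.29, 4.96 and 3.47 CPM with SW-113 and at 2.30, 3.14 and 2.72 CPM with SW-138 in its row with a position on chromosome 10. That row was 1.57-fold lower with no overlap (adjusted p = 0.0493 by edgeR with Benjamini-Hochberg), and its call was lost in 5 of the 6 fits that left out a library, holding without SW-138 replicate 2. The second AKR1C3 row, with no position in the annotation used here, was at -0.99 (log2) and did not pass, although it did with the DESeq2 test and without SW-138 replicate 1. With both rows summed, AKR1C3 was at -0.75 (adjusted p = 0.0104 by edgeR with Benjamini-Hochberg), a fit added after the data were seen. AKR1C1 was at -0.60 ± 0.18 and AKR1C2 at -0.34 ± 0.31, neither past the threshold. These genes are so alike that reads may be divided among them. CBR1, BLVRB, EPHX1 and AKR1B1 were at -0.24, -0.31, -0.19 and -0.17 and did not pass. CBR1 passed in 5 of 15 alternatives that kept all libraries, the DESeq2 test among them, and without SW-138 replicate 2. ABCC1, which exports glutathione conjugates, was at 0.05 with an interval of -0.19 to 0.29.

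All 3 of the remaining NRF2 targets were lower, against 4.06% of all tested genes. TRIM16L (ENSG00000108448, GRCh38 chromosome 17, 18697998 to 18736118), a shortened relative of TRIM16 annotated by RefSeq as a transcribed pseudogene, was at 47.7, 50.7 and 49.2 CPM with SW-113 and at 33.3, 31.2 and 33.6 CPM with SW-138. The gap between compounds was wider than the range within either, and TRIM16L was lower, with a difference of -0.59 ± 0.06 on the log2 scale (adjusted p = 0.000957 by edgeR with Benjamini-Hochberg). This was the smallest adjusted p among the members. TRIM16, a tripartite-motif protein tied to stress responses, was at 78.5, 84.3 and 81.4 CPM with SW-113 and at 58.3, 64.5 and 66.4 CPM with SW-138. Its groups did not overlap and its difference was -0.37 ± 0.06 (adjusted p = 0.00733 by edgeR with Benjamini-Hochberg). TRIM16 and TRIM16L are near-identical over part of their length, so reads may be divided between them. OSGIN1, an oxidative stress response gene, was at 6.94, 8.13 and 6.66 CPM with SW-113 and at 4.96, 4.70 and 5.30 CPM with SW-138. OSGIN1 was 1.45-fold lower (adjusted p = 0.0184 by edgeR with Benjamini-Hochberg), a call lost on omitting any SW-113 library or SW-138 replicate 1.

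Calls that held in each of the 6 fits that left out a library were those of 7 members: TRIM16L, GPX4, NQO1, GCLM, TRIM16, GCLC and TXN. Scaling by total count alone moved the median of all genes by 0.06, and 12 of the 21 members called lower kept their calls. Lost were GLRX2, PRDX1, PRDX2, CAT, GSTP1, GSTM3, GSTK1, MGST1 and AKR1C3.

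**Figure D3:**
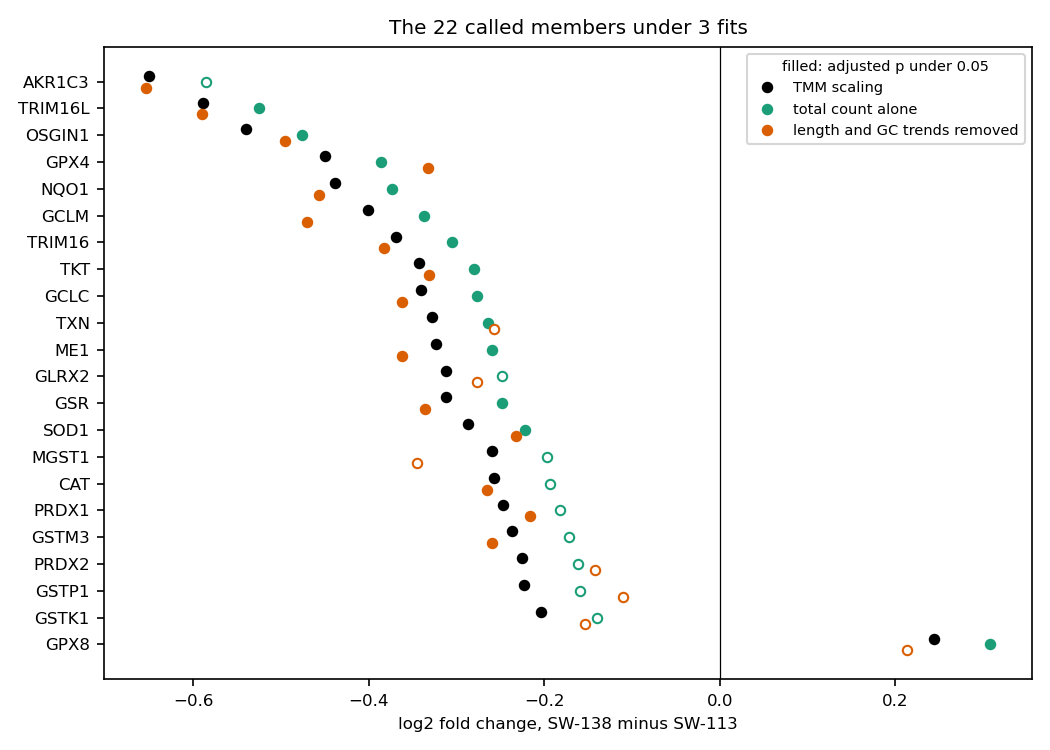
Log2 fold change (x axis) of the 22 called members under TMM scaling, scaling by total count alone and TMM scaling with length and GC trends removed, with filled points for an adjusted p under 0.05. GPX8 is the 1 member above 0 in all 3, and open points include GSTP1, PRDX2 and GSTK1 in both alternatives, AKR1C3 with total count alone, and TXN with length and GC trends removed.

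Transcript length moved with the difference between compounds over all genes. Of protein-coding genes outside the set, 129 of 501 (25.7%) with transcripts up to 1000 bases were lower, with a median log2 fold change of -0.21. For transcripts of 3000 to 5000 bases it was 86 of 3964 (2.17%), with a median of 0.02. The 51 protein-coding members tested were binned the same way. GPX1 and the second AKR1C3 row, which carry no protein-coding type in the annotation used here, are not among them. Those up to 1000 bases, which include TXN, GSTP1, SOD1 and PRDX2, had 4 of 6 lower and a median of -0.26. Members of 1000 to 2000 bases had 7 of 22 lower, where other protein-coding genes had 9.9%. At 2000 to 3000 bases it was 3 of 7 members, where the others had 4.61%. Members of 3000 to 5000 bases, which include GCLC, GCLM, GSR, TKT, ME1 and TRIM16, had 7 of 11 lower and a median of -0.32. Members over 5000 bases, 5 in all with SLC7A11, MAFG, SOD2, ABCC1 and AKR1C1, had 0 lower. In that bin 63 of 3720 other protein-coding genes (1.69%) were lower. AKR1C1, placed there by its longest protein-coding transcript of 6705 bases, was at -0.60 and did not pass. Once each library's trends with length and GC were taken out, 15 of the 21 members kept their calls. Lost were TXN, GLRX2, PRDX2, GSTP1, GSTK1 and MGST1. Of these, 5 had a smaller difference: TXN went from -0.33 to -0.26, GLRX2 from -0.31 to -0.28, PRDX2 from -0.23 to -0.14, GSTP1 from -0.22 to -0.11 and GSTK1 from -0.20 to -0.15. MGST1 lost its call with a larger difference, -0.34 in place of -0.26. Among calls that held, some differences were larger and others smaller. GCLM went from -0.40 to -0.47 and NQO1 from -0.44 to -0.46, while GPX4 went from -0.45 to -0.33 and SOD1 from -0.29 to -0.23. Over the 53 tested rows the median was -0.18 in place of -0.23.

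**Figure D4:**
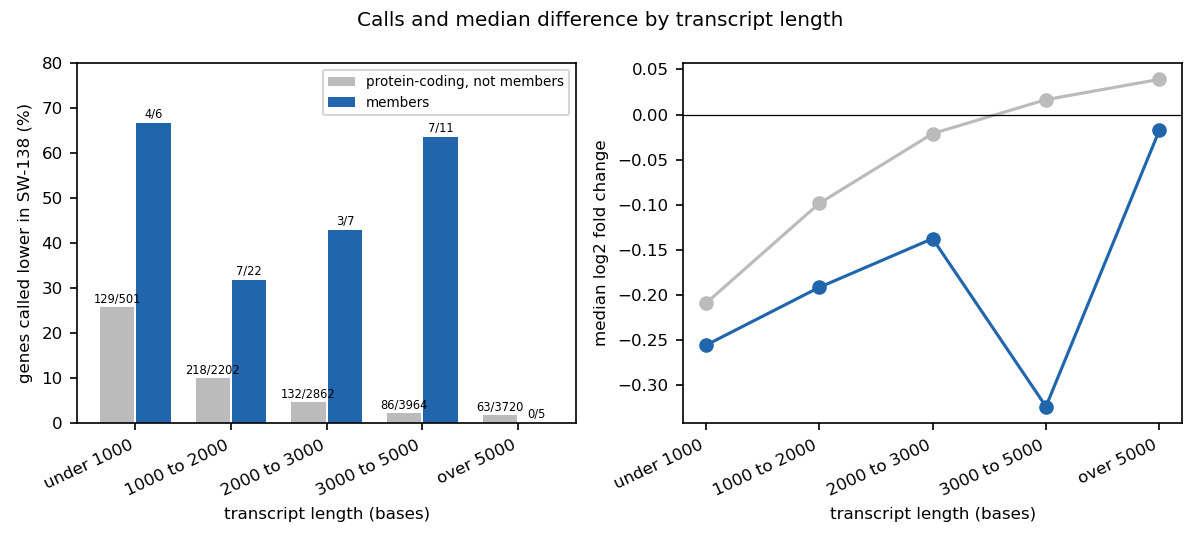
Share of genes called lower in SW-138 (left, percent) and median log2 fold change (right) by transcript length in bases, for members (blue) and other protein-coding genes (grey), with the number called of the number tested over each bar. The grey share falls from 25.7% to 1.69% from the shortest to the longest bin. Over the same bins in that order the members' share is 66.7%, 31.8%, 42.9%, 63.6% and 0%.

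Other genes of the pathway, outside the 55, were followed as a list of 84 matched symbols. Among the 73 tested, 13 fell below and 7 lay above with an adjusted p under 0.05, and the median of all 73 was -0.03. Among all tested genes the shares were 4.06% lower and 2.76% higher, and the median was 0.01. SESN1, a sestrin, was at 28.9 CPM for SW-113 against 20.96 CPM for SW-138, a difference of -0.46 ± 0.08 on the log2 scale (adjusted p = 0.00641 by edgeR with Benjamini-Hochberg), and BLVRA, biliverdin reductase, was at -0.38 ± 0.07. ALDH3A2, an aldehyde dehydrogenase, SLC25A39, a mitochondrial glutathione carrier, and PIR, pirin, a known NRF2 target, were at -0.34 ± 0.06, -0.31 ± 0.06 and -0.52 ± 0.11. Higher were TXNIP, which binds and inhibits thioredoxin (0.70 ± 0.06), the mitochondrial isocitrate dehydrogenase IDH2 (0.41 ± 0.10), SESN2 (0.23 ± 0.06), the oxidoreductase TXNDC12 of the endoplasmic reticulum (0.18 ± 0.05) and the small MAF genes MAFF (0.24 ± 0.06) and MAFK (0.30 ± 0.08). So 2 of the 3 small MAF genes were higher, and MAFG did not pass. The calls for SESN1, BLVRA and TXNIP held in each fit that left out a library. ALDH3A2 lost its call without SW-113 replicate 3, SLC25A39 without SW-113 replicates 1, 2 or 3, and PIR on omitting SW-113 replicates 1 or 2, or SW-138 replicate 3. IDH2 lost its call on omitting any SW-113 library or SW-138 replicate 3. SESN2, TXNDC12, MAFF and MAFK lost theirs without any 1 library other than SW-138 replicate 2. The list had 6 lower and 11 higher with scaling by total count alone.

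Selenoproteins carry selenocysteine at the active site, and GPX1, GPX3, GPX4, TXNRD1 and TXNRD2 belong to them. Selenoprotein genes with enough counts numbered 18, of which 4 were lower and 0 higher, and their median was -0.12. Over all tested genes 4.06% were lower and 2.76% higher, with a median of 0.01. Without the members, 3 of 13 selenoprotein genes were lower and their median was -0.06. The 4 that were lower have transcripts of 888 to 1291 bases, and GPX1, at 1151 bases, did not pass. Short transcripts were lower in general, and the cause of these calls was not tested. SELENOW, a small cytosolic selenoprotein, was at 19.5 CPM for SW-113 against 13.6 CPM for SW-138, a difference of -0.52 ± 0.07 on the log2 scale (adjusted p = 0.00308 by edgeR with Benjamini-Hochberg), and held in each fit that left out a library. Next to GPX4, SELENOM and SELENOH were at -0.36 ± 0.09 and -0.25 ± 0.06. SELENOM lost its call without any 1 library other than SW-138 replicate 2, and SELENOH without any 1 library other than SW-138 replicate 3. With length and GC trends removed SELENOM lost its call (-0.26), and SELENOW, GPX4 and SELENOH kept theirs. With scaling by total count alone 2 selenoprotein genes were lower and 1 higher.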

How the data were processed

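Estimated read counts per gene and library were measured in 6 libraries of HT1080 RNA, 3 per compound. The authors deposited 1 table of expected counts, in which 10.56% to 11.56% of a library's values were fractional. RSEM 1.3.3, Bowtie2 2.5.4, DESeq2 1.42.0, Trimmomatic 0.39 and the build GRCh38 are listed, without roles, per the submitters' processing notes. The annotation version and strandedness used are not given in the sources used here. Overlapping or near-identical genes may therefore share reads.

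Counts were rounded, kept by edgeR's filterByExpr (16905 genes), scaled by TMM and put through the quasi-likelihood test of edgeR 4.0.16, Benjamini-Hochberg adjusted over all tested genes at 0.05 (R 4.3.3). Standard errors and 95% intervals used limma-voom (limma 3.58.1). TMM factors ran from 0.9755 to 1.0324, and the median standard error was 0.09. Length and GC came from the longest protein-coding transcript in GENCODE release 29 (99.3% of tested genes). Fits were tested on simulated data. The members and lists were chosen with earlier results of these data known. Values per library are given for members past the threshold with a log2 fold change of at least 0.3 in size, for any called higher, and whatever their result for NFE2L2, KEAP1, MAFG, NQO1, TXNRD1, SLC7A11 and GCLM. For other lists, up to 6 genes with the smallest p in each direction are named, less 1 that is not reported here. Alternatives were other scalings, filters and tests, a replicate block, leaving out each library, and, chosen after seeing the data, summing the AKR1C3 rows.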

Additional observations from a re-analysis of the deposited data

How the results depend on the processing

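Of the 21 members called lower, 6 kept their call under every alternative run, TRIM16L, GPX4, NQO1, GCLM, TRIM16 and GCLC. Leaving out 1 library gave 7 to 21 members lower and 0 to 1 higher, 154 to 813 of all genes lower and 149 to 803 higher, 4 to 13 other pathway genes lower and 1 to 11 higher, and 2 to 4 selenoproteins lower and 0 to 1 higher. Scaling by total count alone gave 12 members lower, 377 of all genes lower and 923 higher, 6 other pathway genes lower and 11 higher, and 2 selenoproteins lower and 1 higher. Keeping genes at 1 count in 1 library gave 2 members higher, and 1069 of all genes lower and 991 higher. With length and GC trends removed 0 members were higher. The replicate block gave 29 members lower and 2 higher, 1270 of all genes lower and 1093 higher, and 13 other pathway genes and 1 selenoprotein higher. Samples with the same number correlated in their deviations at 0.05, 0.21 and 0.05. Libraries of replicate 2 correlated best with each other, and those of replicates 1 and 3 did not. Whether the numbers pair the samples is not in the labels, and these values do not settle it. The block with length and GC trends removed gave 1319 of all genes lower and 933 higher, and 20 other pathway genes lower and 12 higher. One selenoprotein was called higher with upper quartile factors, genes at a mean of at least 5 CPM, the DESeq2 test, robust edgeR, no mitochondrial and stable noncoding genes, thinning or protein-coding genes only (1 in each). Members near 0 changed sign without passing. With total count alone MAFG was at 0.026, SLC7A11 at 0.047 and GSTO1 at 0.050, and GSTO1 was at 0.030 with length and GC trends removed and at 0.029 with the block as well. Over fits that left out a library NFE2L2 ran from -0.0018 to 0.0544, MAFG from -0.0796 to 0.0174, SLC7A11 from -0.036 to 0.0038, GSTO1 from -0.0538 to 0.0567 and ABCC1 from -0.0584 to 0.173. Members not past the threshold that passed in some alternatives were PRDX6, GPX1, CBR1, SLC7A11 and the second AKR1C3 row. With the replicate block TXN2, SOD2, TALDO1, AKR1B1 and BLVRB passed as well. SOD2 and BLVRB also passed with genes kept at 1 count in 1 library. AKR1B1 also passed with the block and length and GC trends removed. The cause of these changes was not tested. Depth limits the precision of members with low counts, such as GPX3, with an SE of 0.29.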
